A study of Mus musculus with 10 samples.

Results

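Genes of the cyclic AMP (cAMP) and protein kinase A (PKA) pathway were followed in interscapular brown fat of the mouse, a depot at the upper back that burns fuel to make heat. The members were taken from the count table by gene symbol: adenylyl cyclases (Adcy), cyclic nucleotide phosphodiesterases (Pde), PKA catalytic (Prkac) and regulatory (Prkar) subunits, PKA inhibitors (Pkia, Pkib, Pkig), A-kinase anchoring proteins (Akap), the transcription factors Creb1 and Crem, the CREB cofactors Crtc1, Crtc2 and Crtc3, and the salt-inducible kinases Sik1, Sik2 and Sik3. This gave 64 of the 20295 genes in the table, and 51 of the 64 had enough reads to be tested. Poly-A selected RNA was sequenced from single-housed male C57BL/6JBomTac mice, 8 weeks old and fed chow. Controls (n = 5) stayed at 22 °C, while the cold group (n = 5) spent 3 days at 4 °C, and each mouse gave 1 library. No genetic change is stated for any mouse, and all 10 had lived at 22 °C beforehand, so the comparison is of cold with 22 °C and not with warmth at which mice need no extra heat.

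In brown fat, noradrenaline from sympathetic nerves binds beta-adrenergic receptors, whose G protein alpha-s turns on adenylyl cyclases that make cAMP. Phosphodiesterases break cAMP down again. Where cAMP binds the regulatory subunits of PKA, the catalytic subunits are released and phosphorylate lipid droplet proteins, lipases and CREB, a transcription factor of genes with a cAMP response element. Anchoring proteins hold PKA at mitochondria, membranes or the centrosome, PKI proteins block the free catalytic subunit, and SIK kinases keep the CRTC cofactors out of the nucleus until PKA inhibits them.

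Library totals lay between 4446163 and 6923932 counts, which limits the precision for members of a few CPM. Values are normalised counts (CPM, scaled to the TMM-adjusted library total), and levels are compared between genes only as RPKM, which is the CPM per kilobase of counted bases. Brown adipocyte markers (Ucp1, Cidea, Adipoq, Fabp4, Plin1) were present in every library, and their summed level was 24350 to 27270 CPM in controls and 33520 to 38380 CPM in cold libraries. Of these 5 markers 1 rose (Ucp1, log2 fold change 1.02), 1 fell (Adipoq, -0.72) and the other 3 did not pass. Control replicate 2 and cold replicate 5 stood apart from the rest of their groups: 13.7% and 9.80% of the tested members lay more than 1 log2 unit from the mean of the other libraries of the group, against 0 to 5.88% in the other 8 libraries. Over all genes tested these shares were 5.96% and 5.31%, against 0.401% to 3.38%. Several results named here turned on either library, and this is stated beside them or at the end. RNA levels in whole tissue cannot tell a change in the number of cells of a type from a change in RNA per cell.

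The promoters of a few members are shown because their genes carry the results below or hold the cAMP response element that CREB binds. Each is the stretch of 250 bases before a RefSeq start site (build GRCm38.p6), with any core of the element, TGACG or its other strand CGTCA, in capitals. Adcy3 had the largest rise of the tested members. Sik3 rose and had the most cores before its start among the called members, and Prkar1a was the tested member whose window held the full element, TGACGTCA. Adcy3 and Prkar1a have further listed starts whose stretches are not shown, and the stretch of Prkar1a was picked because it held the element.
Adcy3, chr12:4133147-4133396, plus strand: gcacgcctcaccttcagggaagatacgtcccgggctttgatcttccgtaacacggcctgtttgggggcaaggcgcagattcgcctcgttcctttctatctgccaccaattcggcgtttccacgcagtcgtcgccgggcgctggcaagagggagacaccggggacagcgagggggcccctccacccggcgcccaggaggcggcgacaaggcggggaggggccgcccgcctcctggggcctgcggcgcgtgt
Sik3, chr9:46012570-46012819, plus strand: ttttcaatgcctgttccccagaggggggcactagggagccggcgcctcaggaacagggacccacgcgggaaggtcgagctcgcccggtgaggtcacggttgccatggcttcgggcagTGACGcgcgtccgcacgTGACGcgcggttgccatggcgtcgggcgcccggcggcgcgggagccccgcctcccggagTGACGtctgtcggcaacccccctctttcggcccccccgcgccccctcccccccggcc
Prkar1a, chr11:109650699-109650948, plus strand: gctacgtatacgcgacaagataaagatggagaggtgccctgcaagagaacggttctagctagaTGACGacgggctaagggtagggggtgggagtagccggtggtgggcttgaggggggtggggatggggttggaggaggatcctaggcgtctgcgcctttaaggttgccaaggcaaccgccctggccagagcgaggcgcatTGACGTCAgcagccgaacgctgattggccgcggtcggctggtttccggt

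The cores of Sik3 began 133, 116 and 57 bases before the start, and the full element of Prkar1a 49 bases before it. RefSeq windows of 300 bases (250 before to 50 after a start) were at hand for 50 of the 64 members, 95 windows in all. The core stood in 20 of them (21.1%), against 20.8% of the 32851 windows of all genes. The full element, which contains the core on both strands, stood in 2 windows, both of Prkar1a and overlapping, that is 2.11% against 1.79% of all windows. The 8 called members had 16 windows, of which 5 held the core and 0 the full element. A match of letters is not a binding site, and the table gives several starts for some genes without saying which was used in this tissue. No window was at hand for Crem, Sik1 or Pde3b.

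Among all 11229 genes tested, 19.3% passed an adjusted p of 0.05 in edgeR's quasi-likelihood test (Benjamini and Hochberg), 10.2% higher and 9.14% lower in the cold. Of the 51 members tested, 7 rose and 1 fell, which is 15.7%, near the share over all genes. The risers were the cyclases Adcy3, Adcy7 and Adcy10, the phosphodiesterase Pde7b, the PKA regulatory subunit Prkar2a, the PKA inhibitor Pkig and the kinase Sik3, and the member that fell was the phosphodiesterase Pde1a. The median log2 fold change of the members was 0.061 against -0.02 over all genes, and the median of its size was 0.166 against 0.219. In 6 members no cold library lay within the range of the controls or the reverse, which was so for 14% of all genes tested. An unadjusted p under 0.05 was found for 13 of the 51 members, against 3827 of the 11229 genes tested.

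**Figure D1:**
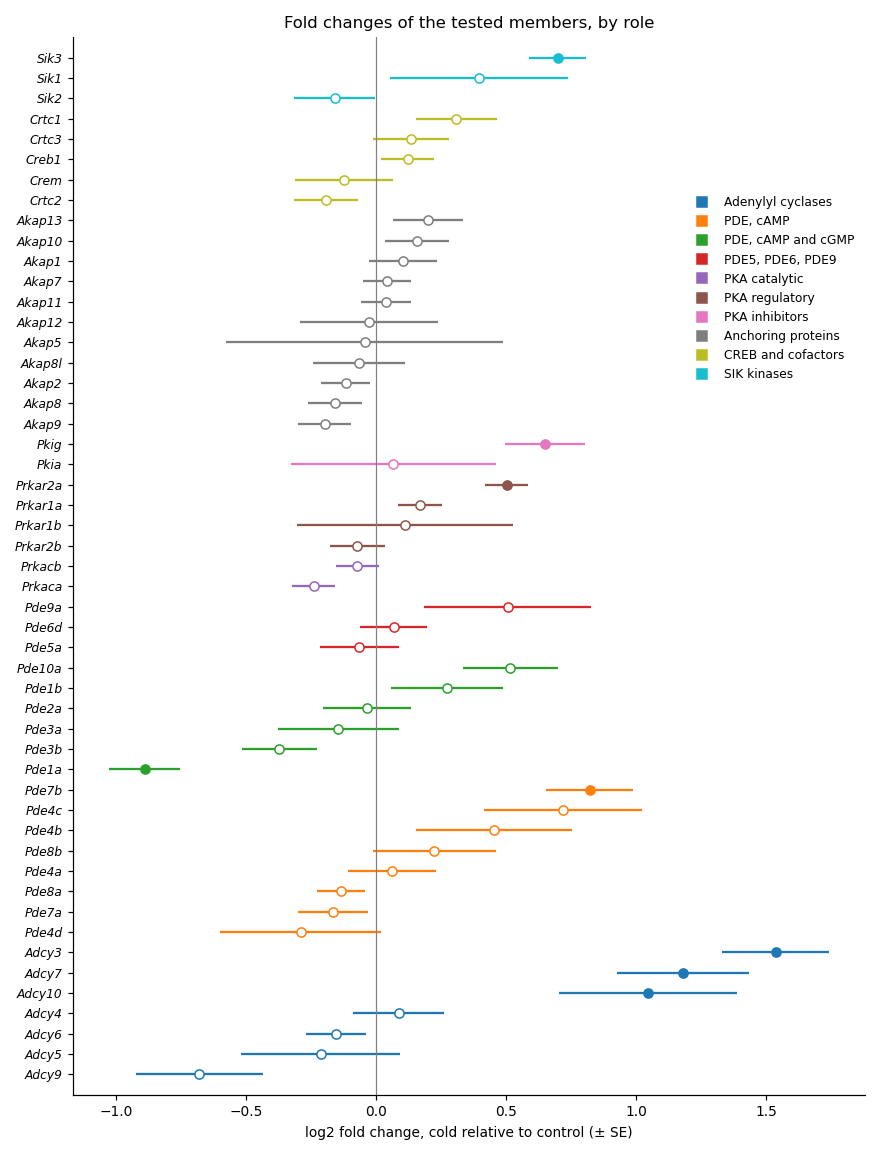
Log2 fold change of cold relative to control (x axis, ± SE) for each of the 51 tested members, grouped and coloured by role. Filled points are the 8 members called at an adjusted p under 0.05; they run from Pde1a at -0.89 to Adcy3 at 1.54, and none of the 11 anchoring proteins is among them.

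Adenylyl cyclases held the largest changes among the tested members. Of 10 cyclase genes 7 were tested, and 3 rose (42.9%, against 10.2% of all genes tested). The call of 1 of these, Adcy10, held in only 3 of the 10 fits lacking 1 library, and 7 genes are few for such a share. Adcy3, a membrane cyclase known both from olfactory neurons and from adipocytes (chromosome 12, 4133397 to 4213524, plus strand; gene positions here and below are of build mm9, not that of the promoters), was at 129, 273, 224, 147 and 128 CPM in control replicates 1 to 5. In cold replicates 1 to 5 it was at 532, 452, 666, 488 and 476 CPM. Every cold library lay above every control, and the highest control was replicate 2. The rise was 2.90-fold (log2 fold change 1.54, SE 0.21, adjusted p = 0.000303). Leaving out each library in turn gave 1.43 to 1.73, and the adjusted p stayed at or under 0.00159. The Adcy3 model overlaps that of Cenpo on the other strand by 1853 bases, and the mean of Cenpo was 8.53 CPM in controls against 11.03 CPM in the cold.

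The rise of Adcy3 moved the make-up of the cyclase family. Per length, Adcy3 and Adcy6, a membrane cyclase inhibited by calcium, were at 49.0 ± 17.7 and 43.2 ± 6.83 RPKM in control libraries (SD, n = 5). In the cold they were at 142 ± 23.2 and 38.9 ± 3.94 RPKM. The level of Adcy3 was 0.708 to 1.97 times that of Adcy6 in controls, with control replicates 4 and 5 below 1, and 3.03 to 5.28 times in cold libraries. Adcy3 made up 34.7% to 54.7% of the summed RPKM of the 10 cyclases in controls and 67.0% to 76.9% in the cold. The summed cyclase level was 111.5 ± 20.3 RPKM in control and 200.3 ± 20.3 RPKM in cold libraries, a sum that Adcy3 dominates.

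Adcy6 itself (chromosome 15, 98420421 to 98438064, minus strand) did not pass the test. It was at 206, 227, 277, 295 and 296 CPM in controls and at 211, 243, 206, 252 and 257 CPM in cold libraries, and differed by -0.15 on the log2 scale (SE 0.11, adjusted p = 0.366). The groups overlapped over most of their range.

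Adcy10, the soluble cyclase activated by bicarbonate (chromosome 1, 167415314 to 167506904, plus strand), was at 22.2, 2.94, 17.2, 10.4 and 15.1 CPM in control replicates 1 to 5. The cold libraries held 30.9, 29.4, 26.7, 17.9 and 33.7 CPM. The groups overlapped, since cold replicate 4 lay below control replicate 1, and control replicate 2 was far below the other controls. The log2 fold change was 1.04 (SE 0.34, adjusted p = 0.0491). Without control replicate 2 it was 0.78 (adjusted p = 0.0205). Of the 10 fits lacking 1 library, 7 lost the call (largest adjusted p 0.107), as did upper quartile scaling (0.0524), library sizes without the 20 most abundant genes (0.0531) and the CPM filter (0.0508). The fit without cold replicate 5 was among those 7.

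Adcy7, a membrane cyclase of the same subgroup as Adcy2 and Adcy4 (chromosome 8, 90796302 to 90853861, plus strand), was far less abundant, at 0.774 ± 0.181 RPKM in control and 1.73 ± 0.546 RPKM in cold libraries. It was at 4.98, 3.33, 5.51, 3.87 and 5.99 CPM in controls and at 9.27, 11.03, 13.8, 13.3 and 5.61 CPM in cold libraries. Cold replicate 5 was the only cold library within the control range. For Adcy7 the log2 fold change was 1.18 (SE 0.25, adjusted p = 0.00613), and 1.33 without cold replicate 5. That library was also the lowest of all 10 in summed macrophage markers, at 28.2 CPM against 51.5 to 89.7 CPM in the other cold and 41.9 to 58.2 CPM in the control libraries (5 of 5 markers tested, 1 of them higher in the cold). Its summed fibroblast and preadipocyte markers were likewise lowest, at 208 CPM against 510 to 686 CPM in the other cold and 310 to 451 CPM in control libraries. The part of these cells in the level of Adcy7 was not tested.

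Of the other cyclases, Adcy9, named after its values were seen, stood at -0.68 on the log2 scale (SE 0.24, adjusted p = 0.068) and did not pass. It was at 140 CPM in control replicate 2, against 42.5 to 79.3 CPM in the other controls and 41.9 to 57.4 CPM in the cold. Without control replicate 2 its value was -0.38 (adjusted p = 0.11), and without control replicate 1 it was -0.84 (adjusted p = 0.0146). In the authors' deposited table Adcy9 stands at -0.683 with an adjusted p of 0.0211. Adcy5 was at 2.04 to 4.90 CPM in controls and 1.87 to 5.27 CPM in cold libraries (log2 fold change -0.21, SE 0.31), and Adcy4 stood at 0.09 (SE 0.18). Adcy1, Adcy2 and Adcy8 were not tested, and no library held 1 CPM of any of them.

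**Figure D2:**
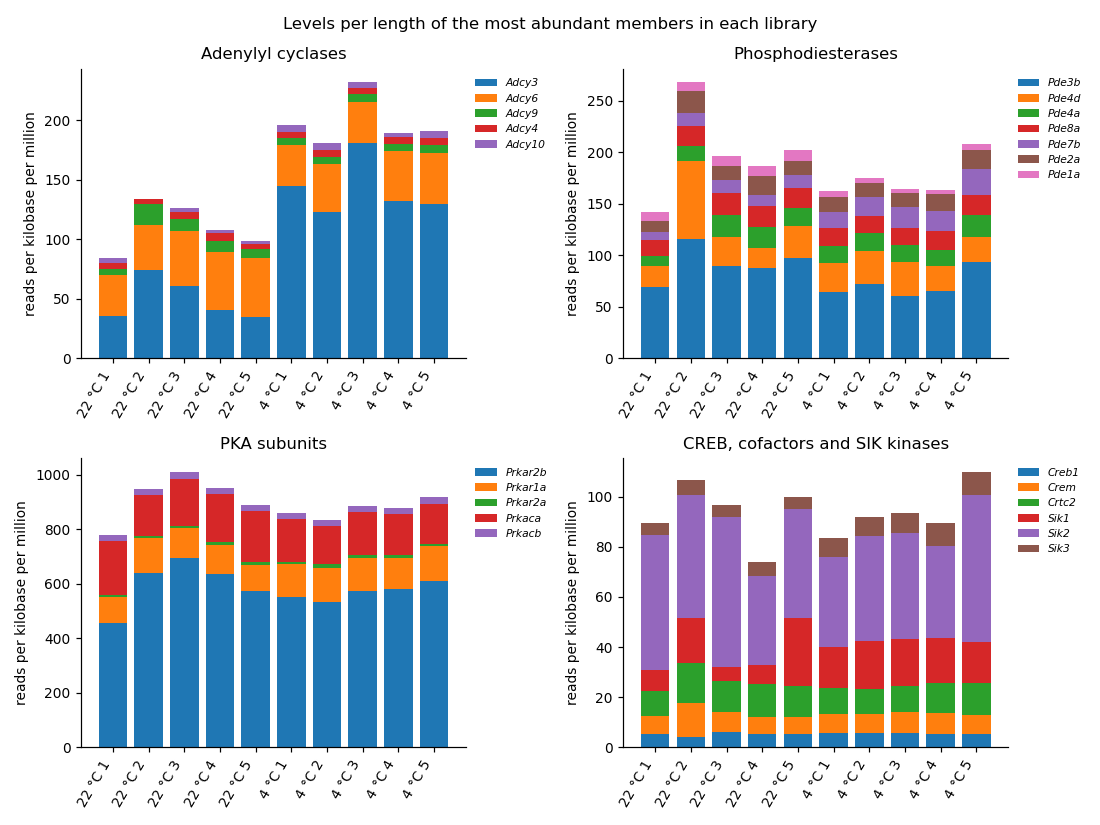
Levels per length (RPKM, y axis) of the more abundant members, stacked, in each of the 5 control (22 °C) and 5 cold (4 °C) libraries (x axis). Adcy3 takes 67.0% to 76.9% of the summed cyclase level in the cold, and Prkar2b is the tallest PKA block in all 10 libraries.

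Phosphodiesterases differed among themselves in direction. Of 8 genes whose enzymes are specific for cAMP, all tested, 1 rose (Pde7b) and 0 fell. Of 8 genes whose enzymes cleave both cAMP and cyclic GMP (cGMP), 6 were tested and 1 fell (Pde1a). The shares called were 12.5% and 16.7%, against 19.3% of all genes tested. The cGMP enzymes Pde5a and Pde9a and the prenyl-binding protein Pde6d, which is no phosphodiesterase, did not pass, and Pde6a, Pde6b and Pde6c had too few reads. Per length, Pde3b was the most abundant phosphodiesterase in both groups, at 91.9 ± 17.1 RPKM in control and 70.9 ± 13.3 RPKM in cold libraries.

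Pde7b (chromosome 10, 20117810 to 20444874, minus strand) was at 29.4, 49.6, 53.5, 46.0 and 52.6 CPM in control replicates 1 to 5. In the cold it was at 62.7, 74.6, 85.1, 78.8 and 108 CPM. The groups did not overlap, and cold replicate 5 was the highest library. The rise was 1.77-fold (log2 fold change 0.82, SE 0.17, adjusted p = 0.00473). The summed level of the cAMP-specific enzymes was 88.4 ± 26.1 RPKM in control and 91.3 ± 5.33 RPKM in cold libraries, and the share of Pde7b in it was 9.26% to 14.8% in control and 17.7% to 26.8% in cold libraries.

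Pde1a, an enzyme activated by calcium and calmodulin (chromosome 2, 79674610 to 79969569, minus strand), fell in the cold. Control libraries held 36.9, 35.7, 46.4, 42.1 and 46.2 CPM, and cold libraries 25.3, 22.4, 18.7, 17.9 and 27.9 CPM. All 5 cold libraries lay below all 5 controls. The log2 fold change was -0.89 (SE 0.14, adjusted p = 0.000763), and Pde1a was lower in all 20 alternative fits, with values from -1.03 to -0.82. Pde1b, of the same subfamily, was at 0.27 (SE 0.21, adjusted p = 0.402), and Pde1c was not tested, with at most 1.20 CPM in a library.

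Pde3b, through which insulin lowers cAMP and lipolysis in adipocytes (chromosome 7, 121558768 to 121681451, plus strand), was at 364, 613, 473, 465 and 514 CPM in controls and at 340, 380, 317, 343 and 495 CPM in cold libraries. Of the cold libraries, 3 lay below every control, while replicates 2 and 5 did not. For Pde3b the log2 fold change was -0.37 (SE 0.14, adjusted p = 0.0863). Without cold replicate 5 it was -0.50 (adjusted p = 0.016) and without control replicate 1 it was -0.47 (adjusted p = 0.0282), so the call rested on which library entered.

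The 4 genes of the Pde4 subfamily, rolipram-sensitive enzymes that end beta-adrenergic cAMP signals in many cells, did not pass. Pde4d (chromosome 13, 109444371 to 110746177, plus strand) was at 143, 533, 200, 138 and 218 CPM in controls and at 201, 227, 232, 177 and 171 CPM in cold libraries. Control replicate 2 stood above every other library. The log2 fold change was -0.29 (SE 0.31, adjusted p = 0.544), and 0.20 (adjusted p = 0.351) without control replicate 2. Pde4b was at 8.14, 21.4, 6.89, 12.1 and 12.2 CPM in controls and at 19.6, 17.7, 21.0, 17.4 and 7.67 CPM in cold libraries. Control replicate 2 was high and cold replicate 5 low, each at the level of the other group. For Pde4b the log2 fold change was 0.45 (SE 0.30, adjusted p = 0.316), and 0.92 (adjusted p = 0.00203) without both of these libraries. They were its highest control and its lowest cold library, so leaving them out had to widen the difference. The fit without them therefore cannot decide whether Pde4b rose. Pde4a stood at 0.06 (SE 0.17) and Pde4c at 0.72 (SE 0.30, adjusted p = 0.113).

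The remaining phosphodiesterases were near 0 or of low level. Pde8a, a high-affinity cAMP enzyme, was at -0.14 (SE 0.09) and Pde2a, which cGMP stimulates, at -0.04 (SE 0.17). Pde10a was at 4.13 to 6.08 CPM in controls and 5.90 to 9.41 CPM in cold libraries, and differed by 0.52 on the log2 scale (SE 0.18, adjusted p = 0.0656).

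**Figure D3:**
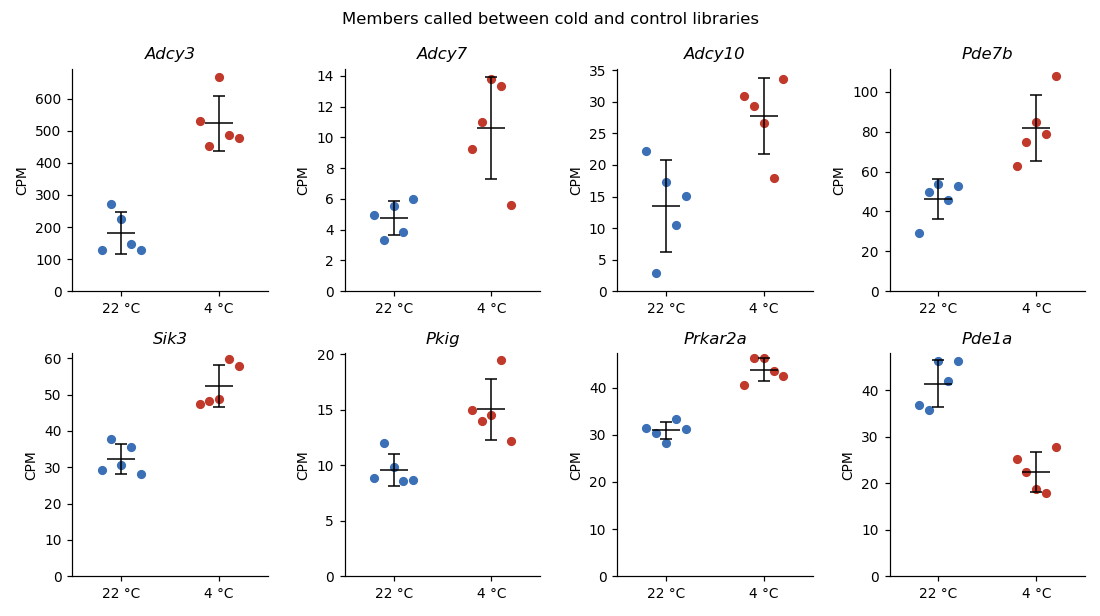
CPM (y axis, from 0) of the 8 called members in each control (22 °C, blue) and cold (4 °C, red) library; points are single libraries in the order of replicates 1 to 5, bars the mean ± SD of 5. Groups are apart for 6 genes, and overlap for Adcy7 (cold replicate 5 at 5.61 CPM) and Adcy10 (cold replicate 4 at 17.9 CPM).

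Among PKA subunits only a minor regulatory subunit was called, and it rose. The abundant Prkar2b was close to its control level, while calls of Prkaca and Prkar1a depended on the fit. Prkar2b, the regulatory subunit that dominates in mouse adipose tissue (chromosome 12, 32643344 to 32746144, minus strand), was at 1530, 2152, 2338, 2131 and 1921 CPM in controls and at 1858, 1797, 1928, 1950 and 2048 CPM in cold libraries. The cold libraries lay within the control range, and the log2 fold change was -0.07 (SE 0.10, adjusted p = 0.666). Per length Prkar2b held 81.4% to 85.7% of the summed regulatory subunits in control and 79.7% to 82.3% in cold libraries.

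Prkar2a, its close relative (chromosome 9, 108594474 to 108651842, plus strand), was at 31.4, 30.4, 28.3, 33.4 and 31.2 CPM in control libraries. It was at 40.5, 46.3, 46.3, 43.6 and 42.5 CPM in the cold. The 2 groups were narrow and apart. The rise was 1.42-fold (log2 fold change 0.50, SE 0.08, adjusted p = 0.00125), from 7.65 ± 0.456 to 10.9 ± 0.620 RPKM. This remained a small part of the regulatory subunits, at 0.861% to 1.39% of their summed RPKM in control and 1.41% to 1.71% in cold libraries.

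Prkar1a, the widely expressed type I regulatory subunit (chromosome 11, 109512263 to 109530962, plus strand), was at 318, 417, 359, 361 and 327 CPM in controls and at 391.9, 414, 401, 374 and 422 CPM in cold libraries. Apart from control replicate 2, all controls lay below all cold libraries. For Prkar1a the log2 fold change was 0.17 (SE 0.08, adjusted p = 0.176), and 0.23 (adjusted p = 0.0443) without control replicate 2. Prkar1b, at 0.621 to 3.33 CPM in all libraries, did not pass.

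Prkaca, the main catalytic subunit (chromosome 8, 86496877 to 86520341, plus strand), was at 458, 345, 398, 403 and 430 CPM in controls and at 355, 322, 362, 347 and 336 CPM in cold libraries. Control replicate 2 lay among the cold libraries and the other 4 controls above them. For Prkaca the log2 fold change was -0.24 (SE 0.08, adjusted p = 0.0579). Leaving out control replicate 2 gave -0.30 (adjusted p = 0.0111), and DESeq2 on all libraries gave -0.24 (adjusted p = 0.0298). Prkacb stood at -0.07 (SE 0.08, adjusted p = 0.576), and Prkaca held 86.4% to 90.2% of the catalytic RPKM in control and 85.6% to 88.8% in cold libraries. The summed regulatory level was 2.53 to 4.44 times the summed catalytic level in control and 3.83 to 4.37 times in cold libraries, so these ranges overlapped.

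The PKA inhibitors are small proteins that bind the free catalytic subunit as a pseudosubstrate and carry it out of the nucleus. Pkig, the most abundant of them (chromosome 2, 163484122 to 163551894, plus strand), was at 8.82, 12.0, 9.88, 8.59 and 8.67 CPM in controls and at 14.9, 14.0, 14.5, 19.5 and 12.2 CPM in cold libraries. Cold replicate 5 exceeded control replicate 2 only narrowly, at 12.16 against 11.96 CPM. The rise was 1.57-fold (log2 fold change 0.65, SE 0.15, adjusted p = 0.0111). Per length, Pkig was at 3.88% to 6.96% of the level of Prkaca in controls and at 7.28% to 11.3% in the cold.

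Pkia was at 2.55 to 12.7 CPM in controls and 2.62 to 9.63 CPM in cold libraries, lowest in control replicate 2 and cold replicate 5, and differed by 0.07 on the log2 scale (SE 0.39, adjusted p = 0.923). Pkib was not tested, with less than 1 CPM in every library.

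None of the anchoring proteins was called. Of 15 genes 11 were tested, few to set against the 19.3% of all genes that were called. Of the 11, 0 rose and 0 fell in edgeR's test. An unadjusted p under 0.05 was found for 0 of them, against 3827 of the 11229 genes tested. None of them was called in any of the 20 alternative fits, DESeq2 and limma-voom among them. Their log2 fold changes lay between -0.20 (Akap9, a centrosome and Golgi protein) and 0.20 (Akap13, a large scaffold protein). Akap1, which tethers PKA to the outer mitochondrial membrane (chromosome 11, 88692106 to 88725900, minus strand), was the most abundant per length, at 89.3 ± 21.1 RPKM in control and 95.9 ± 7.66 RPKM in cold libraries. Its libraries held 287, 309, 473, 328 and 281 CPM in controls and 358, 346, 323, 399 and 376 CPM in the cold. Control replicate 3 was above every other library. The log2 fold change was 0.10 (SE 0.13, adjusted p = 0.621), and 0.26 (adjusted p = 0.0643) without control replicate 3.

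Akap12, a scaffold known as gravin, was at 113 CPM in control replicate 2 against 32.8 to 49.4 CPM in the other controls and 43.9 to 64.4 CPM in the cold. Akap5 had the widest error of the tested members, with 0.588 CPM in control replicate 2, 0.935 CPM in cold replicate 5 and 2.02 to 8.07 CPM elsewhere. Akap3 and Akap6 were not tested. Akap4 and Akap14 had 0 counts in all 10 libraries, as had Pde6c, which allows up to 0.0540 CPM each over the 10 libraries together (3 counts, counting error only).

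None of the 5 CREB and cofactor genes was called, 0 had an unadjusted p under 0.05, and none was called in any alternative fit. The share called over all genes was 19.3%, and 5 genes are too few to set against it. Creb1 (chromosome 1, 64579378 to 64651122, plus strand) was at 43.7, 34.3, 50.6, 45.8 and 44.8 CPM in controls and at 49.5, 49.6, 50.02, 44.6 and 44.5 CPM in cold libraries (log2 fold change 0.12, SE 0.10, adjusted p = 0.433). Control replicate 2 was the lowest library. Crem, which makes activators of cAMP-responsive genes and, from an internal promoter, the feedback repressor ICER (chromosome 18, 3266352 to 3327589, minus strand), was at 17.0, 32.6, 18.8, 15.7 and 15.9 CPM in controls and at 17.2, 17.6, 19.7, 19.5 and 17.8 CPM in cold libraries. Control replicate 2 was the highest library and the other 9 lay close together. For Crem the log2 fold change was -0.12 (SE 0.19, adjusted p = 0.682), and 0.12 (adjusted p = 0.46) without control replicate 2. Counts per gene model do not separate ICER from the other Crem transcripts.

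Of the cofactors, Crtc2 was the most abundant per length, at 12.8 ± 2.02 RPKM in control and 11.2 ± 1.30 RPKM in cold libraries (log2 fold change -0.19, SE 0.12, adjusted p = 0.298). Crtc1 was at 6.11 to 8.76 CPM in controls and 7.86 to 10.8 CPM in cold libraries (0.31, SE 0.16, adjusted p = 0.185). Crtc3 was at 8.83 to 13.4 CPM and 10.3 to 14.2 CPM (0.13, SE 0.15, adjusted p = 0.556).

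Of the 3 salt-inducible kinases 1 rose, Sik3, and the other 2 did not pass. Over all genes tested 10.2% rose, and 3 genes are too few to set against that share. Sik3 (chromosome 9, 45820903 to 46032277, plus strand) was at 29.2, 37.7, 30.6, 35.5 and 28.3 CPM in control libraries. In the cold it was at 47.4, 48.2, 48.9, 59.8 and 57.8 CPM, above every control. The rise was 1.62-fold (log2 fold change 0.70, SE 0.11, adjusted p = 0.00093).

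Sik1, the family member whose gene is itself a CREB target (chromosome 17, 31981195 to 31992737, minus strand), was at 36.9, 81.2, 25.5, 33.0 and 123 CPM in controls and at 74.0, 84.7, 83.2, 79.3 and 73.1 CPM in cold libraries. The cold libraries lay close together, while the controls spread on both sides of them, with replicate 5 the highest of all 10 libraries and replicate 3 the lowest. The log2 fold change was 0.40 (SE 0.34, adjusted p = 0.449), and 0.83 (adjusted p = 0.0525) without control replicate 5. Sik2 (chromosome 9, 50700906 to 50817178, minus strand), the most abundant per length at 48.3 ± 9.33 RPKM in control and 43.2 ± 9.15 RPKM in cold libraries, was at 160, 145, 177, 105 and 129 CPM in controls and at 107, 125, 126, 109 and 174 CPM in cold libraries. Cold replicate 5 stood above the other cold libraries, and the groups overlapped. For Sik2 the log2 fold change was -0.16 (SE 0.15, adjusted p = 0.501). The gene model of Sik2 overlaps that of Ppp2r1b on the other strand by 1429 bases, and the mean of Ppp2r1b was 142 CPM in controls against 109 CPM in the cold.

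**Figure D4:**
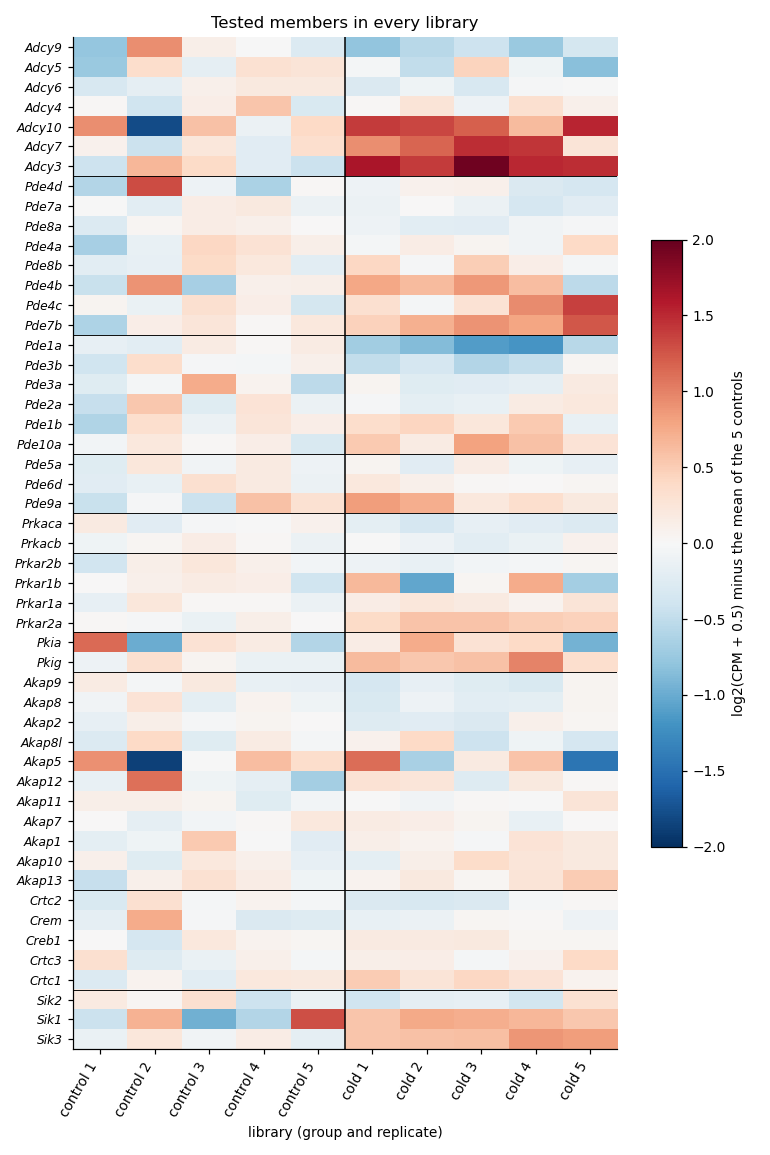
Each tested member (rows, grouped by role) in each library (columns): log2(CPM + 0.5) minus the mean of the 5 controls, red above and blue below. Adcy3, Pde7b, Prkar2a, Pkig and Sik3 are red in all 5 cold libraries, Pde1a is blue in all 5, and control replicate 2 holds the reddest control values of Pde4d, Crem, Akap12 and Adcy9.

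Control replicate 2 had its own profile of members. It lay more than 1 log2 unit above the mean of the other 4 controls for Adcy9, Akap12, Pde4b and Pde4d, and more than 1 below it for Adcy10, Akap5 and Pkia. Among a list of 10 genes known as CREB targets, that library also held the highest control values of Nr4a1 (312 CPM against 7.24 to 102 CPM), Nr4a3 (45.9 against 1.86 to 6.20 CPM), Per1 (135 against 25.8 to 34.5 CPM), Dio2 (1500 against 166 to 284 CPM) and Ppargc1a (993 against 81.5 to 215 CPM). The same held for Nr4a2 (95.7 against 20.2 to 36.9 CPM) and Irs2 (46.1 against 2.7 to 14.0 CPM). Dusp1 was at 47.9 CPM there and at 47.5 CPM in control replicate 1. Fos and Bdnf, which had too few reads to be tested, were not raised there. Fos was at 0.392 CPM, within the range of the other controls, and Bdnf was lowest of the controls at 0.196 CPM. With all libraries, 1 of the 8 targets tested rose and 1 fell (25% called, against 19.3% of all genes), and their median log2 fold change was -0.386. Without control replicate 2, 4 rose and 1 fell (62.5% called, against 21.4% of all genes) and the median was 0.509, so its sign turned on that library. This reading was added after the data were seen. Control replicate 2 held the highest control values of the tested targets, so leaving it out had to raise their fold changes. The share called without that library is therefore no result about CREB targets as a set. Dio2, the deiodinase that activates thyroid hormone, went from -0.11 (adjusted p = 0.899) to 0.94 (adjusted p = 0.00285) when that library was left out. Ppargc1a, a coactivator of mitochondrial genes, went from -0.20 (adjusted p = 0.836) to 1.02 (adjusted p = 0.0159), and Irs2, an adaptor of the insulin receptor, from 0.64 (adjusted p = 0.446) to 1.61 (adjusted p = 0.0119). Dusp1, a phosphatase of MAP kinases, was at 38.8 to 47.9 CPM in controls and at 67.5 to 91.3 CPM in cold libraries (log2 fold change 0.96, SE 0.10, adjusted p = 5.8e-05). Nr4a3, a nuclear receptor, fell by 4.01 on the log2 scale (adjusted p = 0.014), and by 2.10 without control replicate 2 (adjusted p = 0.00412). Its call held in 19 of 20 alternative fits and was lost with limma-voom (adjusted p = 0.0803). What set that library apart was not tested.

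Other genes of the pathway, a list of 25 of which 22 were tested, held 1 gene that rose and 2 that fell (13.6% of those tested), with a median log2 fold change of 0.061. Without control replicate 2, 1 rose and 4 fell (22.7%). The shares over all genes were 19.3% with all libraries and 21.4% in that fit. Gnas, which encodes the G protein alpha-s that stimulates cyclases, was at 2619, 3045, 3075, 2987 and 2533 CPM in controls and at 4630, 4966, 4934, 5337 and 5720 CPM in cold libraries. Every cold library lay above every control, a rise of 1.79-fold (log2 fold change 0.84, SE 0.09, adjusted p = 5.5e-05). The locus makes several transcripts that the counts do not separate. Gnai1, Gnai2 and Gnai3, the inhibitory alpha subunits, stood at 0.20, 0.10 and -0.05 and did not pass.

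Gskip, a small protein that binds PKA and the kinase GSK3, fell by 0.45 on the log2 scale (SE 0.12, adjusted p = 0.0202), from 20.6 to 30.3 CPM in controls to 17.4 to 19.4 CPM in the cold. Without control replicate 5 its adjusted p was 0.0521 and without cold replicate 4 it was 0.0523. The cAMP-gated exchange factors Rapgef3 and Rapgef4 were at 0.17 (adjusted p = 0.469) and 0.89 (adjusted p = 0.0919). The PKA substrates of lipolysis Lipe and Plin1 were at -0.22 (adjusted p = 0.196) and -0.14 (adjusted p = 0.348), and Crebbp and Ep300, coactivators that bind phosphorylated CREB, at 0.25 and -0.02. Lipe was called lower when control replicate 2 was left out, as was the beta-adrenergic receptor gene Adrb3, which did not pass with all libraries.

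In the authors' deposited table of the same comparison, 49 of the members are listed, 7 higher and 2 lower at an adjusted p under 0.05. The second lower gene beside Pde1a is Adcy9. That table gives Adcy3 a log2 fold change of 1.53 and Pde1a one of -0.893.

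Marker sums of other cell types were as follows. Endothelial markers summed to 595 to 770 CPM in controls and 746 to 893 CPM in cold libraries. Of these markers 2 of 6 were called higher, against 10.2% of all genes tested. Smooth muscle and pericyte markers summed to 383 to 613 CPM and 422 to 644 CPM with none of 6 called, and Schwann and nerve markers to 121 to 207 CPM and 148 to 245 CPM with none of 4 tested called. Skeletal muscle markers ranged from 5.51 to 75.1 CPM in controls and from 6.70 to 306 CPM in cold libraries, high in cold replicates 2 and 3. T cell and B cell markers stayed at or below 1.45 and 5.13 CPM in every library. Red cell markers were at 8.37 to 17.7 CPM in controls and 14.5 to 41.8 CPM in cold libraries. Of these 3 markers 1 was tested, and it was called higher in the cold. Whether any of these cells took part in a change of a member was not tested.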

How the data were processed

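Reads of each library were deposited as raw counts, 1 row for each RefSeq gene model, per the file headers. The treatment label of the cold samples reads room temperature beside 4 °C, while their titles and source names place them in the cold. RNA was poly-A selected and made into libraries with a TruSeq kit, per the labels' protocols. STAR, the build mm9 and edgeR are named in the submitters' processing notes; no source used here gives the counter, annotation release or strand setting, so overlapping genes and isoforms cannot be told apart. The lengths used for RPKM are the deposited counted bases, a score per gene model per the file headers. The authors' deposited comparison gives log2 fold changes, log2 CPM and p-values.

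Here edgeR 4.0.16 (R 4.3.3; TMM, filterByExpr, quasi-likelihood test) was fitted to all genes, cold against control, with limma 3.58.1 and DESeq2 1.42.0 as alternatives. P-values are two-sided, adjusted by Benjamini and Hochberg over 11229 genes; the SE is the log2 fold change divided by the square root of F. The method was tested on simulated data with far fewer changed genes than were called here and no library set apart. No result given here rests on that test. Control columns, which carry no group word, were matched through their replicate number, and the number of unused library columns was 0. Of 20295 rows, 27 had a repeated or date-like symbol and kept their identifier. Starts count from 0 in the table and were raised by 1. Members given in full are those called and a panel of 21 genes. Members and lists were chosen with earlier results of these data known. No 2 libraries of a group agreed within sampling noise (chi-square per degree of freedom 3.20 to 36.1). The floor given for genes with 0 counts covers counting error only, while SE and SD include variation between libraries. Alternatives left out 1 library each, changed scaling or filter, or added the replicate number. The values of 1 gene counted in the pathway list are not reported here.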

Additional observations from a re-analysis of the deposited data

Results flagged for a closer look

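In groups of 5 libraries, 1 library lay far from the other 4 for 5 of the 52 group-by-gene sets of the 26 members given in full; chance alone marks about 1 group in 20. Akap1 in control replicate 3 was at 473.1 CPM against 280.7 to 327.8 in the other controls. Crem in control replicate 2 was at 32.56 CPM against 15.66 to 18.84, and Pde4d in the same library was at 532.9 CPM against 137.8 to 218.4. Pde4b in cold replicate 5 was at 7.669 CPM against 17.44 to 20.95, and Sik2 in that library was at 173.9 CPM against 107.0 to 125.8. The values without each of these libraries stand in the results for Akap1, Crem, Pde4d and Pde4b; Sik2 without cold replicate 5 stood at -0.30 (adjusted p = 0.132).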

How the results depend on the processing

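Of the 8 calls, 7 (all but Adcy10) held in all 20 alternative fits. The members that rose numbered 6 to 8 with 1 library left out, and those that fell 1 to 3 (3 without control replicate 1, where Adcy9 and Pde3b were added; 2 without control replicate 2, where Prkaca was, or without cold replicate 5, where Pde3b was). Of the pathway list 1 to 2 rose and 0 to 4 fell. Members that fell numbered 3 with DESeq2 (Adcy9 and Prkaca added), 2 with library sizes without the 20 most abundant genes (Prkaca added) and 3 with both control replicate 2 and cold replicate 5 left out (Pde3b and Prkaca added). In that last fit 9 members rose (Pde4b and Pde10a added), 2 genes of the pathway list rose (Ezr added) and 4 fell (Adrb3 and Lipe added); with limma-voom 1 fell. Signs changed, with no call, for Adcy5 (0.011) and Crtc3 (-0.009) without both libraries, for Crem (range -0.206 to 0.123 with 1 library left out, and 0.134 without both), Pde4d (-0.445 to 0.202, and 0.256 without both) and for Pkia (-0.138 to 0.455); for each of these 3 genes control replicate 2 turned the sign, and for Pkia also control replicate 5 and cold replicate 2. The causes were not tested. Replicate numbers are shared by the groups but do not pair them (correlations of deviations -0.255 to 0.192); with a replicate block 7 members rose and 1 fell, as without it, and 1789 of all genes were called against 2168. Scaling moved the median log2 fold change of all genes by less than 0.1 (-0.028 to 0.013). In fits added after seeing the data, the median of the CREB targets lay between -0.422 and 0.509 with control replicate 2 or cold replicate 5 left out and was 0.49 without both, where 4 rose and 1 fell.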
